A study of Homo sapiens with 8 samples.

Results

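The genes described here encode core protein parts of the spliceosome, and they were taken as the rows of the gene table whose symbol begins with SNRP, with SF3A or SF3B and a digit, or with PRPF and a digit. The rule found 34 of 13471 genes, and it used no measured value. For the comparison by size, the 12 SNRP genes formed the small group and the 19 SF3B and PRPF genes formed the large group, while the 3 SF3A genes stood apart. The names of the groups go by family: SF3B5 and SF3B6 sit in the large group although they encode proteins of 86 and 125 amino acids. The SNRP genes encode 76 to 282 amino acids (median 142), and the SF3B and PRPF genes 86 to 2335 (median 669).

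The spliceosome removes introns from RNA transcripts and is put together from small nuclear ribonucleoproteins (snRNPs), each of which holds a U RNA. Sm proteins form a ring around the U RNA in the cytoplasm before the particle returns to the nucleus. U1 binds the 5′ splice site, U2 with the SF3A and SF3B complexes binds at the branch point, and the U4/U6.U5 tri-snRNP, which holds several PRPF proteins, joins them before catalysis. The values below are levels of the messenger RNAs of these proteins, not of the proteins, the U RNAs or splicing.

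RNA was sequenced from hTERT-RPE1 cells, a telomerase-immortalized line of human retinal pigment epithelial origin, with and without immunoprecipitation (IP) by the antibody 3G6 against hnRNP U, an abundant nuclear RNA-binding protein also called SAF-A. Interphase cells were kept for 24 h in 2 mM thymidine, which blocks DNA replication; mitotic cells had the same thymidine treatment, 6 h without thymidine, and then STLC overnight, which blocks the spindle kinesin Eg5. All groups had therefore been exposed to thymidine, and mitosis differed from interphase also by the release and STLC. The 4 groups, interphase without IP, interphase IP, mitosis without IP and mitosis IP, held 2 libraries each, made from RNA depleted of ribosomal RNA after detergent lysis and centrifugation. The labels do not say that replicates came from separate cultures, so p-values measure only the spread between these libraries, which may be technical. No control-antibody IP was used here, so binding to hnRNP U and retention on the beads cannot be told apart.

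Values are FPKM (fragments scaled to the length of the transcript and to the library's mapped fragments), the deposited unit, and differences are of log2(FPKM + 1). Library depth is unknown. From the steps between low values, depth relative to the first interphase library without IP ranged from 0.64 (the first mitotic IP library) to 1.19 (the second mitotic IP library). Of 13 retinal pigment epithelium markers, 6 had a row, with means in interphase without IP of 9.59 FPKM for MITF, 8.54 for OTX2, 43.9 for KRT8, 74.4 for KRT18 and 10.3 for TJP1. PMEL was at 0.114 FPKM, and RPE65, RLBP1, BEST1, TYR, TYRP1, SERPINF1 and TTR had no row. Of 5 mesenchymal or fibroblast markers 4 had a row. Their means in interphase without IP were 1809 FPKM for VIM, 275 for FN1, 80.9 for ACTA2 and 1.06 for COL1A1. All 8 mitotic check genes, CCNB1 and BUB1 among them, were higher in mitosis without IP, by 1.18 to 2.66 on the log2 scale. HNRNPU itself had means of 32.1 FPKM in interphase without IP, 59.5 in the interphase IP, 46.7 in mitosis without IP and 51.0 in the mitotic IP.

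A pair of coding sequences shows what the small members are. SF3B5 and SNRPF were among the members with the lowest log2 differences between the interphase IP and RNA without IP, and their coding sequences are the same length, 261 bases, with different base composition: 57.5% GC in SF3B5 and 41.4% in SNRPF. SF3B5 lies in a single exon on the minus strand (chr6:144095237-144095497), and SNRPF is spliced from exons on the plus strand (chr12:95859074-95866071). Both are from GENCODE release 29 on GRCh38, 5′ to 3′, with the start and stop codons in capitals.
SF3B5: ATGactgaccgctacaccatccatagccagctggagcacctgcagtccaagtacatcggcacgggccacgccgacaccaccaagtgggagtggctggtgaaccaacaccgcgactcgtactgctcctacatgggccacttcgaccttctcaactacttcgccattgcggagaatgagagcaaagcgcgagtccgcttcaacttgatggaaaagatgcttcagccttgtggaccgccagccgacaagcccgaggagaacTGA
SNRPF: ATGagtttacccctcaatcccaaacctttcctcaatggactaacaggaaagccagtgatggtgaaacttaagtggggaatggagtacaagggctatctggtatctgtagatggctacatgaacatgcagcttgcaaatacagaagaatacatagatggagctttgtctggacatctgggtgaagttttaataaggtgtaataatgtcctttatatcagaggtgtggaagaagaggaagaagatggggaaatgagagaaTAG

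The first comparison asked which of these mRNAs were higher or lower in the hnRNP U IP than in RNA without IP in interphase. The IP was lower for 10 of the 12 SNRP genes and higher for none, and of the 19 SF3B and PRPF genes it was higher for 9 and lower for 7. Of the 34 members, 18 were lower in the IP, 10 were higher and 6 did not pass (adjusted p below 0.05, limma with Benjamini-Hochberg adjustment over all genes). Over all 13471 genes the IP changed 74.6%, with 37.6% higher and 37.0% lower. The median log2 difference of the members was -0.45, beside 0.02 over all genes.

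Of the 8 Sm ring genes 6 were lower and none was higher, with a median log2 difference of -2.06. SNRPD2, a ring protein that pairs with SNRPD1, was at 281 and 307 FPKM without IP and at 28.2 and 28.6 in the interphase IP. SNRPF, which joins the ring with SNRPE and SNRPG, was at 45.5 and 49.0 FPKM without IP and at 4.70 and 3.67 in the IP. In both genes each IP library lay far below each library without IP. The log2 difference was -3.33 (SE 0.14, adjusted p = 3.1e-07, limma) for SNRPD2 and -3.22 (SE 0.12, adjusted p = 2.5e-07) for SNRPF.

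SNRPB, which encodes the Sm proteins B and B′, fell from 160.0 and 133 FPKM without IP to 32.9 and 27.2 in the IP (log2 difference -2.25, SE 0.14, adjusted p = 1.43e-06, limma). SNRPN, an imprinted gene whose Sm protein is close to that of SNRPB, was at 69.2 and 67.7 FPKM without IP and at 17.3 and 13.3 in the IP (log2 difference -2.10). SNRPE and SNRPG were also lower, by log2 differences of -2.03 and -1.49. The ring genes that did not pass were SNRPD1 and SNRPD3. SNRPD1 was at 37.9 and 36.7 FPKM without IP and at 34.8 and 30.5 in the IP, a log2 difference of -0.19 (SE 0.13, adjusted p = 0.231, limma). SNRPD3 was at 25.7 and 25.1 FPKM without IP and at 26.2 and 23.8 in the IP, so its groups overlapped (log2 difference -0.02, SE 0.11, adjusted p = 0.854, limma). With the trends of all genes on transcript length and GC content taken out of each library, both passed, SNRPD1 as lower (-1.33, adjusted p = 0.000102, limma) and SNRPD3 as higher (0.58, adjusted p = 0.00161). The annotated SNRPD1 transcript used for this, of 4909 nt, is the longest of the SNRP genes, and which transcript these cells make was not tested.

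Among the U1 proteins, SNRPA and SNRPC were lower in the IP by log2 differences of -1.73 and -2.30. The U2 proteins SNRPA1 and SNRPB2, which bind U2 RNA as a pair, were lower by less, -0.43 and -0.47. SNRPA1 lost its call under quantile normalization (adjusted p = 0.143, limma). Of the SF3A genes, SF3A1 was higher (0.42) and SF3A2 lower (-0.89), while SF3A3 had a log2 difference of -0.16 that did not pass. SF3A1 lost its call without the first interphase library that had no IP. After the length and GC trends were taken out, SF3A1 (0.19) did not pass (adjusted p = 0.149, limma). SF3A2 then passed as higher (0.44, adjusted p = 0.0338) and SF3A3 as lower (-0.44, adjusted p = 0.0117).

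The SF3B complex split within itself, with 2 genes higher and 4 lower. SF3B1, the large scaffold that contacts the branch point, was at 25.7 and 22.3 FPKM without IP and at 74.5 and 62.8 in the IP. Each IP library lay above each library without IP, with a log2 difference of 1.48 (SE 0.13, adjusted p = 1.14e-05, limma). SF3B5, the smallest subunit, went the other way, from 96.1 and 103.9 FPKM without IP to 7.73 and 7.64 in the IP. Its log2 difference of -3.54 (SE 0.13, adjusted p = 2.5e-07, limma) was the lowest of the 34 genes. SF3B3 was higher (0.85), and SF3B6, SF3B4 and SF3B2 were lower (-2.13, -0.97 and -0.81). With the length and GC trends taken out, SF3B3 (0.08), SF3B4 (-0.20) and SF3B2 (-0.23) did not pass (adjusted p = 0.518, 0.116 and 0.378, limma). A single interphase IP library held the call of SF3B2: without the second one, its adjusted p was 0.0655 (limma).

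PRPF8, the large tri-snRNP protein at the catalytic centre, was at 7.27 and 8.09 FPKM without IP and at 29.1 and 23.0 in the IP. Its log2 difference of 1.63 (SE 0.21, adjusted p = 8.9e-05, limma) was the highest of the 34 genes. None of the other tri-snRNP genes was called higher. PRPF31 was lower, at 25.8 and 22.7 FPKM without IP and at 6.10 and 5.63 in the IP (log2 difference -1.88). PRPF3, PRPF4 and PRPF6 had log2 differences of 0.06, -0.24 and 0.00 that did not pass. After the length and GC trends were taken out, PRPF6 passed as higher (0.65, adjusted p = 0.00291, limma) and PRPF4 as lower (-0.34, adjusted p = 0.0352). PRPF31 stayed lower (-0.87), and PRPF3 (0.07) again did not pass. PRPF4 also passed as lower with the replicate number as a block (adjusted p = 0.0452, limma).

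Of the other PRPF genes, 6 of 8 were higher in the IP. PRPF4B, a kinase, rose from 6.12 and 6.11 FPKM without IP to 12.8 and 14.0 in the IP (log2 difference 1.01, SE 0.11, adjusted p = 2.68e-05, limma). PRPF38B, PRPF39, PRPF38A and PRPF18 were higher by 0.39 to 0.85. The smallest of these, PRPF18, missed the threshold without the second interphase library that had no IP (adjusted p = 0.0885, limma). PRPF19, a ubiquitin ligase, and PRPF40B were lower by log2 differences of -1.86 and -0.77. With the length and GC trends taken out, PRPF38A passed as lower (-0.61, adjusted p = 0.00414, limma). PRPF18 (0.01), PRPF38B (-0.01), PRPF39 (-0.17), PRPF4B (-0.14) and PRPF40B (-0.06) then did not pass (adjusted p from 0.207 to 0.943, limma). PRPF19 stayed lower (-0.99).

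**Figure D1:**
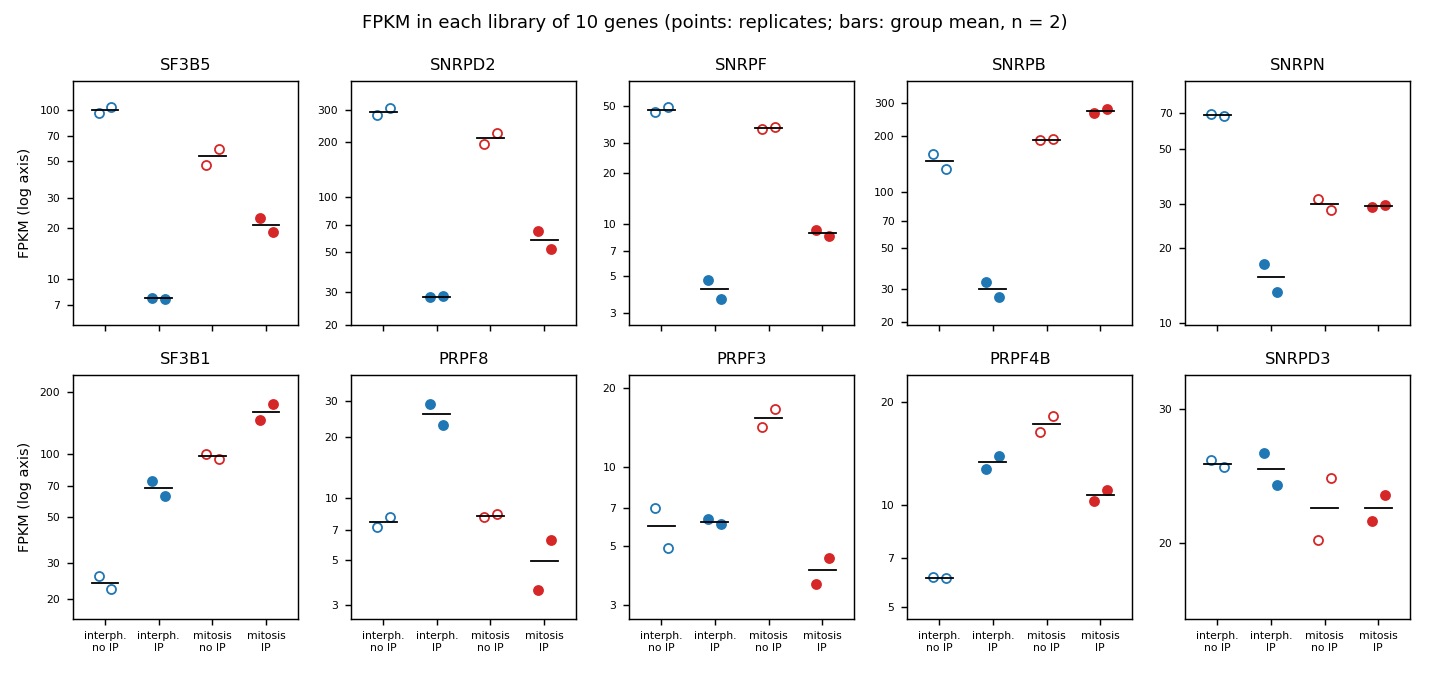
FPKM (log axis) in each of the 8 libraries for 10 of the genes; points are libraries, open without IP and filled with IP, and bars are means of 2. SF3B5, SNRPD2 and SNRPF fell in the IP in both phases, SNRPB fell in the interphase IP and rose in the mitotic IP, PRPF8 and PRPF4B did the reverse, and SNRPD3 stayed between 20.2 and 26.2 FPKM.

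In mitosis the IP was lower than RNA without IP for 7 of the 12 SNRP genes and for 12 of the 19 SF3B and PRPF genes, and higher for 2 of each. Of the 34 members, 21 were lower in the mitotic IP, 4 were higher and 9 did not pass. Over all genes 64.5% changed, 32.8% higher and 31.7% lower. The members' median log2 difference was -0.66, beside 0.01 over all genes.

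In the Sm ring 5 of 8 genes were lower in the mitotic IP and 1 was higher. SNRPF was at 36.3 and 37.2 FPKM without IP and at 9.29 and 8.54 in the IP, the lowest log2 difference of the 34 genes (-1.93, SE 0.12, adjusted p = 7.31e-06, limma). SNRPD2 was at 196 and 224 FPKM without IP and at 65.1 and 51.9 in the IP (log2 difference -1.83, adjusted p = 1.19e-05, limma). SNRPB was the one ring gene with higher IP values, at 189 and 192 FPKM without IP and at 267 and 280.3 in the IP. That was a log2 difference of 0.52 (SE 0.14, adjusted p = 0.00984, limma), with each IP library above each library without IP. SNRPN was at 31.5 and 28.3 FPKM without IP and at 29.3 and 29.8 in the IP, where the groups overlapped (log2 difference -0.01, adjusted p = 0.934, limma). SNRPD1, which had not passed in interphase, was lower here (-0.59), and SNRPD3 again had a difference near 0 (0.00, SE 0.11).

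SNRPA and SNRPC of U1 were lower (-1.16 and -0.90). SNRPA1 of U2 was higher by 0.35, a call that was lost when any of the 4 mitotic libraries was left out (adjusted p from 0.0615 to 0.096, limma). SF3A2 and SF3A3 were lower (-1.14 and -0.69). In SF3B, SF3B1 was at 100.4 and 94.6 FPKM without IP and at 146 and 173 in the IP (log2 difference 0.70, SE 0.13, adjusted p = 0.00161, limma), while SF3B5, SF3B6 and SF3B2 were lower (-1.30, -1.54 and -1.09).

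All but one of the tri-snRNP genes were lower in the mitotic IP, and PRPF4 (-0.23) did not pass. After the length and GC trends were taken out, PRPF4 passed as lower too (-0.32, adjusted p = 0.0449, limma). PRPF31 was at 27.8 and 25.0 FPKM without IP and at 7.21 and 5.63 in the IP (log2 difference -1.89, SE 0.13, adjusted p = 9.54e-06, limma). PRPF8 was at 8.07 and 8.40 FPKM without IP and at 3.57 and 6.28 in the IP, which did not overlap. Its log2 difference of -0.68 (SE 0.21, adjusted p = 0.0177, limma) became -0.34 (adjusted p = 0.106) without the first mitotic IP library, the library of lowest relative depth, and missed the threshold without either mitotic library that had no IP (adjusted p = 0.0539 and 0.067). Of the other PRPF genes 5 of 8 were lower, and PRPF38B was higher, at 3.21 and 3.39 FPKM without IP and 4.32 and 4.74 in the IP (log2 difference 0.36, SE 0.11, adjusted p = 0.021, limma). PRPF38B lost its call without either mitotic library that had no IP or without the second mitotic IP library (adjusted p from 0.0559 to 0.101). PRPF38A, lower by -0.43, lost its call without the first mitotic library that had no IP or the second mitotic IP library (adjusted p = 0.0783 and 0.0666).

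The interphase and mitotic IP comparisons share no library, so they can be set side by side gene by gene. Of the 34 genes, 13 were lower in the IP in both phases: SNRPD2, SNRPE, SNRPF and SNRPG of the Sm ring, SNRPA and SNRPC of U1, SF3A2, SF3B2, SF3B5, SF3B6, PRPF19, PRPF31 and PRPF40B. With the length and GC trends taken out, SF3A2 passed as higher in interphase (0.44, adjusted p = 0.0338, limma). SF3B2 then did not pass in interphase (-0.23), and PRPF40B passed in neither phase (-0.06 and -0.02). Higher in both phases were 2, SF3B1 and PRPF38B, and neither passed in either phase with the length and GC trends taken out (0.22 and 0.16 for SF3B1, -0.01 and -0.07 for PRPF38B). Lower in interphase and higher in mitosis were 2, SNRPB and SNRPA1. Higher in interphase and lower in mitosis were 4, PRPF8, PRPF4B and PRPF38A among them. After the length and GC trends were taken out, SNRPB (-0.63 in interphase and 1.21 in mitosis) and PRPF8 (1.39 and -0.60) kept both calls. SNRPA1 (0.23) and PRPF4B (-0.14) then did not pass in interphase (adjusted p = 0.109 and 0.207, limma). PRPF38A passed as lower in both phases (-0.61 and -1.0). Neither phase passed for PRPF4 and SNRPD3. In the setting without the trends, PRPF4 passed as lower in both phases (-0.34 and -0.32, adjusted p = 0.0352 and 0.0449, limma). SNRPD3 then passed as higher in interphase (0.58, adjusted p = 0.00161) and did not pass in mitosis (0.17).

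**Figure D2:**
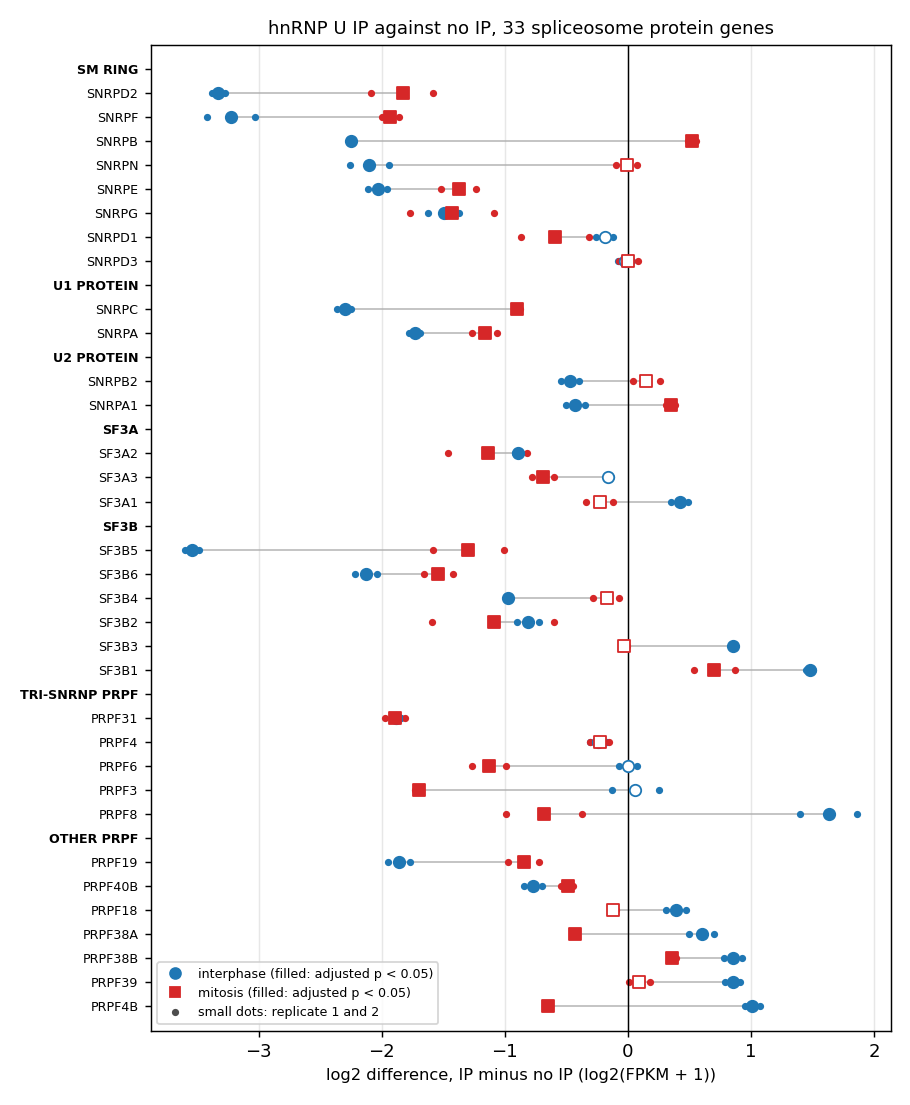
Log2 difference of the IP from RNA without IP (x axis) for 33 of the 34 genes by role (y axis), in interphase (blue circles) and mitosis (red squares); filled symbols passed the test, small dots are the same-numbered replicates and grey lines join the phases. The SNRP genes sit at or left of 0 in interphase and mostly move right in mitosis, most of all SNRPB (from -2.25 to 0.52), while most PRPF genes move left, most of all PRPF8 (from 1.63 to -0.68).

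The test of the difference itself, the mitotic IP effect minus the interphase IP effect, passed for 24 of the 34 genes, 11 upward and 13 downward. Over all genes 47.1% passed, 27.2% upward and 19.9% downward. No SNRP gene passed downward, and 8 of 12 passed upward. The change was largest in SNRPB, 2.77 (SE 0.20, adjusted p = 5.28e-05, limma), followed by SF3B5 (2.24, SE 0.19, adjusted p = 7.52e-05) and SNRPN (2.09, SE 0.18, adjusted p = 8.08e-05). SNRPD2, SNRPC, SNRPF, SNRPA1, SNRPE and SNRPB2 passed with 0.62 to 1.49, and SNRPA, SNRPD1, SNRPD3 and SNRPG did not pass. With the length and GC trends taken out, SNRPG passed downward (-0.62, adjusted p = 0.0435, limma). SNRPE (0.25) and SNRPA1 (0.23) then did not pass (adjusted p = 0.317 and 0.268, limma). For SNRPF, SNRPD2 and SNRPC the IP stayed below RNA without IP in mitosis, so the upward change was a smaller deficit.

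Of the SF3B and PRPF genes, 11 of 19 passed downward and 3 upward. PRPF8 had the lowest value, -2.31 (SE 0.29, adjusted p = 0.000378, limma), and PRPF3 was also low (-1.77, SE 0.24, adjusted p = 0.000499). PRPF3 was at 7.03 and 4.94 FPKM without IP and 6.36 and 6.07 with IP in interphase, and at 14.2 and 16.7 without IP and 3.59 and 4.52 with IP in mitosis. Its interphase groups overlapped and its mitotic groups lay far apart. The genes that passed upward were SF3B5, PRPF19 (1.01) and SF3B4 (0.80). With the length and GC trends taken out, PRPF19 and SF3B4 did not pass (adjusted p = 0.0947 and 0.0891, limma). Of SF3A, SF3A1 and SF3A3 passed downward (-0.66 and -0.53). The calls of PRPF18, PRPF38B, SF3A3, SNRPB2 and SNRPE did not hold when single libraries were left out: each was lost in 5 or more of the 8 fits that left out a library (adjusted p up to 0.129, limma).

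In interphase the small group had a median IP difference of -1.88 and the large group 0.06, a gap of -1.94 (-1.89 and -2.19 in the same-numbered replicates). In mitosis the medians were -0.74 and -0.65, and the gap of -0.10 (0.01 and -0.42 in the replicates) was smaller than the spread between replicates. These group values are descriptions with no test, since genes are not replicates. In levels, the median SNRP gene stood at 2.83 and 3.05 times the median SF3B or PRPF gene in the interphase libraries without IP, at 0.962 and 0.885 times in the interphase IP, at 1.95 and 1.93 times in mitosis without IP, and at 2.54 and 2.02 times in the mitotic IP. Without SF3B5 and SF3B6, the remaining 17 large genes had medians of 0.39 in interphase and -0.49 in mitosis, with 9 higher and 5 lower in interphase and 2 higher and 10 lower in mitosis.

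The families differ in transcript length, which the rule did not use. The annotated transcripts (the longest principal transcript of each gene) were 625 to 4909 nt long for the SNRP genes (median 1271) and 693 to 9720 for the SF3B and PRPF genes (median 2868), while the median GC content was 48.2% and 48.5%. Across the 34 genes, Spearman's rho between length and the IP difference was 0.80 in interphase and 0.40 in mitosis, a description across genes that share the same libraries. The same rho over the 13120 annotated genes was 0.55 and 0.29, and for GC content -0.72 and -0.56 (members -0.33 and -0.19).

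Compared with genes of like length, the members' medians were lower, except for the longest genes in interphase. For the 8 members of at most 1200 nt the interphase median was -2.19, beside -1.42 for all 1285 genes of that length. At 1201 to 3000 nt it was -0.81 (15 members) beside -0.38, and above 3000 nt 0.60 (11 members) beside 0.46. In mitosis the members' medians were -1.34, -0.74 and -0.49 in the same order, beside -0.70, -0.06 and 0.13. With the trends of all genes on length and GC content taken out of each library, the interphase gap between small and large genes was -0.88, the small group's median was -1.02, and the large group's median changed sign to -0.14. The interphase SF3B1 difference was then 0.22 (adjusted p = 0.218, limma), while SNRPF (-3.67), SNRPD2 (-1.61), SF3B5 (-1.37) and PRPF8 (1.39) stayed past the threshold. In the same setting PRPF38A (-0.61), PRPF38B (-0.01), PRPF39 (-0.17), PRPF4B (-0.14), SF3A2 (0.44) and SNRPA1 (0.23) changed sign in interphase, and the mitotic differences of SNRPB and SNRPF were 1.21 and -2.51.

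**Figure D3:**
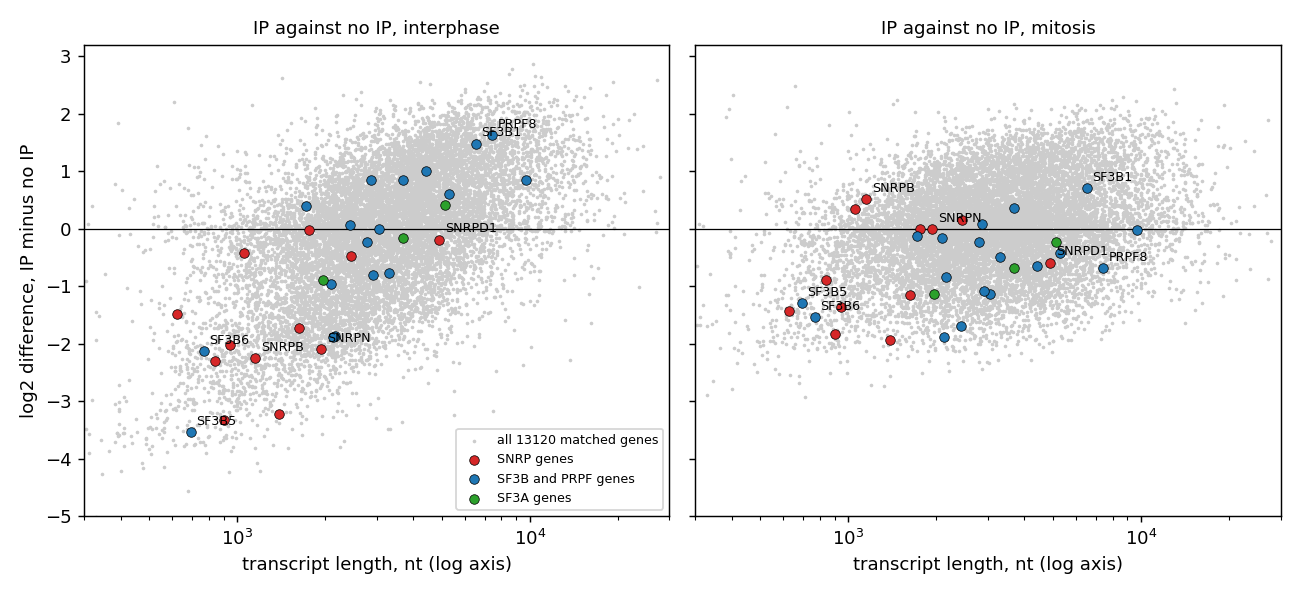
Log2 difference of the IP from RNA without IP (y axis) against transcript length in nt (x axis, log scale) in interphase (left) and mitosis (right); grey points are the annotated genes inside the plotted range and coloured points 33 of the 34 members. SF3B5 and SF3B6 sit with the short SNRP genes rather than with the longer SF3B and PRPF genes, and Spearman's rho across the members is 0.80 in interphase and 0.40 in mitosis.

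Without IP, RNA of mitotic cells was compared with that of interphase cells. In bulk RNA, fewer cells with a transcript and less of it per cell cannot be told apart, and FPKM gives each gene's share of its library. Of the 34 genes, 10 were higher in mitosis, 12 were lower and 12 did not pass. With the length and GC trends taken out the balance turned, to 14 higher and 7 lower. Over all genes 51.7% changed, 26.2% higher and 25.5% lower. The comparison shares its libraries with both IP comparisons above.

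SF3B1 rose the most, from 25.7 and 22.3 FPKM in interphase to 100.4 and 94.6 in mitosis (log2 difference 1.98, SE 0.13, adjusted p = 1.52e-05, limma). Every mitotic library was well above every interphase library. PRPF4B, at 6.12 and 6.11 FPKM in interphase and 16.4 and 18.2 in mitosis, rose by 1.36 (SE 0.11, adjusted p = 3.22e-05, limma), and PRPF3 by 1.25 (SE 0.17, adjusted p = 0.000454). SF3B3 (0.99), SF3A3 (0.77), PRPF39 (0.67), SNRPA1 (0.43), SNRPB (0.38) and SF3A1 (0.38) were among the others that were higher.

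SNRPN had the lowest value, from 69.2 and 67.7 FPKM in interphase to 31.5 and 28.3 in mitosis (log2 difference -1.17, SE 0.13, adjusted p = 0.000153, limma). The U1 protein SNRPA was at 19.1 and 18.2 FPKM in interphase and at 7.63 and 9.76 in mitosis (-1.03, SE 0.18, adjusted p = 0.00185, limma), and SF3B2 at 27.6 and 25.5 and then 14.2 and 11.7 (-0.98, SE 0.22, adjusted p = 0.00586). In these 3 genes the mitotic and interphase libraries did not overlap. The remaining lower genes were SF3B6, SF3B5, PRPF19, PRPF38B, PRPF40B, SNRPD2, PRPF6, SNRPC and SNRPF, by -0.96 to -0.35. Leaving out a single library ended the calls of 8 genes, PRPF6, SF3A1, SF3B6, SNRPA1, SNRPB, SNRPC, SNRPD2 and SNRPF (adjusted p from 0.0508 to 0.279, limma). With the length and GC trends taken out, SNRPC (0.20) and SNRPD2 (0.05) changed sign, and SF3B5 (-0.05) and SF3B6 (-0.39) did not pass (adjusted p = 0.758 and 0.177, limma). The medians of small and large genes were -0.16 and 0.12, a gap of -0.29 (-0.44 and -0.14 in the replicates), and with the trends taken out the small group's median was 0.02.

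**Figure D4:**
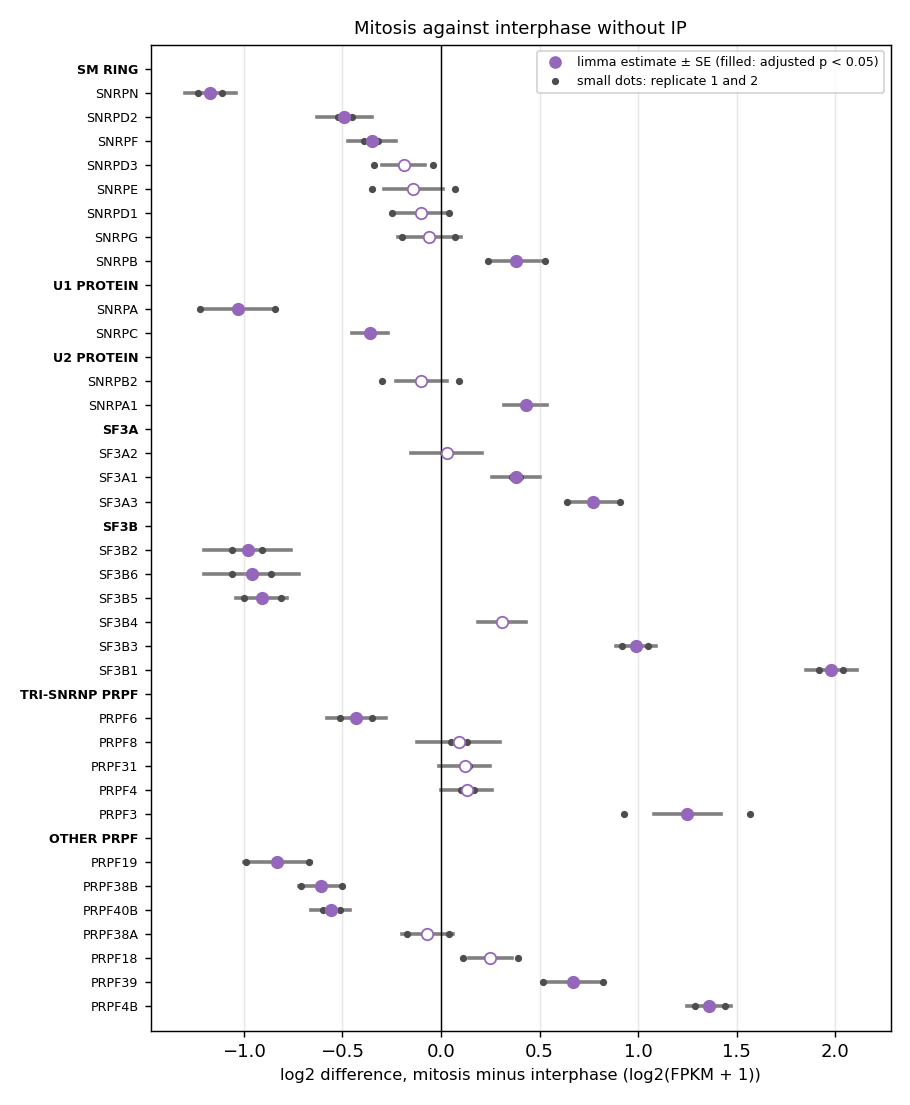
Log2 difference between mitosis and interphase without IP (x axis) for 33 of the 34 genes by role (y axis), as the limma estimate with its SE (line) and the same-numbered replicates (small dots); filled points passed the test. SF3B splits most widely, from -0.98 (SF3B2) to 1.98 (SF3B1).

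Levels in the 2 IP groups were compared directly as well; this comparison also shares its libraries with those above. Of the 34 genes, 11 were higher in the mitotic IP, 10 were lower and 13 did not pass, and over all genes 61.4% changed, 35.8% higher and 25.6% lower. SNRPB rose the most, from 32.9 and 27.2 FPKM in the interphase IP to 267 and 280.3 in the mitotic IP (log2 difference 3.15, SE 0.14, adjusted p = 1.35e-06, limma). SF3B5 rose from 7.73 and 7.64 FPKM to 22.9 and 18.9 (1.33, SE 0.13, adjusted p = 3.93e-05, limma), and SF3B1 from 74.5 and 62.8 to 146 and 173 (1.21, SE 0.13, adjusted p = 7.71e-05). At the other end, PRPF8 fell from 29.1 and 23.0 FPKM to 3.57 and 6.28 (-2.22, SE 0.21, adjusted p = 2.84e-05, limma), PRPF6 from 9.77 and 8.28 to 1.98 and 2.85 (-1.56, SE 0.15, adjusted p = 3.13e-05) and SF3B2 from 16.3 and 13.2 to 4.05 and 7.42 (-1.27, SE 0.22, adjusted p = 0.00105). The groups of these 6 genes did not overlap. Of the SNRP genes 8 of 12 were higher and 1, SNRPD1 (-0.50), was lower, while of the SF3B and PRPF genes 3 of 19 were higher and 9 lower. SNRPA (-0.46) did not pass (adjusted p = 0.0562, limma), but passed as lower under quantile normalization (0.0332) and centring on library medians (0.0229). After the length and GC trends were taken out, SNRPA (-0.89) and SNRPD3 (-0.42) passed as lower (adjusted p = 0.00212 and 0.00728, limma). SNRPD1 (-0.17) then did not pass, and the SNRP genes called higher kept their calls. Leaving out a single library ended the calls of 5 genes, PRPF3, PRPF40B, PRPF4B, SNRPD1 and SNRPE (adjusted p from 0.0513 to 0.233, limma).

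Several rows share sequence or position with other genes, and how the authors treated shared reads is not given in the sources used here. Of the stretches of 50 bases in the annotated transcripts, 44.2% in SNRPN also lie in other genes (SNURF and AC124312.1, at the same locus), 42.5% in PRPF18, 41.5% in SNRPA1, 22.9% in SNRPG, 21.2% in SNRPE, 10.5% in SF3B4, 9.6% in SNRPC and 9.5% in SNRPB. PRPF31 overlaps TFPT, PRPF39 overlaps FKBP3, PRPF40B overlaps FMNL3, SNRPD3 overlaps GUCD1, SF3B3 holds SNORD111, and SF3A1 overlaps CCDC157 and KIAA1656. The values of these genes are uncertain to that extent. PRPF18, the gene with the second largest shared part, was at 12.8 and 10.9 FPKM in interphase without IP, 16.1 and 15.5 in the interphase IP, 14.0 and 14.6 in mitosis without IP, and 12.7 and 13.5 in the mitotic IP. SNRPA1 was at 3.94 and 3.89 FPKM, 2.86 and 2.46, 5.68 and 5.56, and 7.31 and 7.53 in the same order, and its highest values were in the mitotic IP. SNRPG was at 28.0 and 28.5 FPKM, 10.2 and 8.64, 24.4 and 29.98, and 10.9 and 8.06, with both IP groups below both groups without IP. SNRPE was at 28.6 and 28.8 FPKM, 6.61 and 5.91, 22.2 and 30.3, and 8.90 and 9.94, which were split in the same way.

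Beyond these families, a list of 56 other spliceosome genes had 55 in the table. The shares called over all genes, given above for each comparison, are the background for their counts and are repeated in brackets. In interphase 17 of them were higher in the IP and 29 lower (37.6% and 37.0% of all genes; median -0.47), from LSM7 (-3.47), a ring protein of U6 RNA, to SNRNP200 (1.50), the helicase of U5. In mitosis 11 were higher and 35 lower (32.8% and 31.7%; median -0.98), from DDX23 (-2.28) to the helicase gene DHX15 (1.65). The difference between phases passed upward for 16 and downward for 20 (27.2% and 19.9%), and SNRNP200 was lowest (-2.54) and SNRNP40 highest (1.69). Without IP, 23 were higher in mitosis and 7 lower (26.2% and 25.5%), with DHX15 at 1.90. Between the IP groups, mitosis was higher for 18 and lower for 17 (35.8% and 25.6%), from ZCRB1 (-2.12) to DHX15 (2.46).

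Of 17 genes whose products assemble snRNPs, such as the SMN complex that loads the Sm ring, the interphase IP was higher for 4 and lower for 8 (median -0.40), COPRS lowest at -2.72. In mitosis 4 were higher and 6 lower (median -0.11). The difference between phases passed upward for 6, GEMIN7 highest at 2.23, and downward for 3. Without IP, mitosis was higher for 4 of them and lower for 4, and between the IP groups mitosis was higher for 8 and lower for 5. As shares, higher and then lower, the interphase IP had 23.5% and 47.1%, beside 37.6% and 37.0% of all genes. The mitotic IP had 23.5% and 35.3%, beside 32.8% and 31.7%. In the difference the shares upward and downward were 35.3% and 17.6%, beside 27.2% and 19.9%. Without IP they were 23.5% and 23.5%, near the background of 26.2% and 25.5%. Between the IP groups they were 47.1% and 29.4%, beside 35.8% and 25.6%. No test was run on these counts.

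The promoters of the genes with the highest and the lowest difference between phases, SNRPB and PRPF8, are shown because the members were searched for short motifs in the 250 bases before and 50 after the RefSeq start (GRCh38.p14), on both strands. Printed are the 150 bases before the start, 5′ to 3′ on the gene's strand, with CGGAAG, a core recognised by ETS family factors, in capitals. SNRPB is at chr20:2470790-2470939 on the minus strand and PRPF8 at chr17:1684868-1685017 on the minus strand. The GENCODE 5′ ends of SNRPB (2470853) and PRPF8 (1684882) lie inside these windows. By that end, the CGGAAG of SNRPB lies within the annotated gene.
SNRPB: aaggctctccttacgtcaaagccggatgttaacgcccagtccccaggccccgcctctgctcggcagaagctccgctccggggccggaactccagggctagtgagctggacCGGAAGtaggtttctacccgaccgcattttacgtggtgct
PRPF8: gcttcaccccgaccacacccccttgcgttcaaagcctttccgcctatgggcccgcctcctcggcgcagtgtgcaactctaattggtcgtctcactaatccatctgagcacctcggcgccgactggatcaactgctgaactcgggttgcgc

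Windows were matched for 28 of the 34 genes. CGGAAG was in 19 of these 28 (67.9%), in 33.2% of the 9784 genes of the table with a window, and in 19.5% of all 35116 windows. Of the SNRP genes 7 of 11 held it. CCAAT was in 11 of the 28 (39.3%), beside 37.2% of the genes of the table and 34.6% of all windows, and TATAAA in 1 of the 28, SNRPC, beside 5.5% and 11.5%. AAGATGGCG was in 3 of 28 (10.7%, beside 4.0% and 1.7%). Matches of different motifs were counted separately, also where they overlapped. These counts are descriptions of letters in the windows, with no test.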

How the data were processed

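RNA of hTERT-RPE1 cells was measured in 8 libraries, 4 groups of 2. The deposited FPKM values, made by the authors, are per gene and library, per the file headers. TopHat and StringTie are named without version or role in the submitters' processing notes, as are the builds of the tables; the gene table is on hg38. The ratio columns deposited by the authors are quotients of FPKM columns and were matched by recomputation in all 13471 rows. How shared reads were assigned is not given in the sources used here. No value was 0, and no filter was applied.

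The 34 members, their classes and the gene lists were chosen with earlier results of these data known. limma 3.58.1 in R 4.3.3 (lmFit, eBayes with trend) was run on log2(FPKM + 1), with 1 coefficient per group over all 8 libraries (4 residual degrees of freedom), with two-sided tests and Benjamini-Hochberg adjustment over all genes of each comparison. FPKM + 1 understates changes of genes near or below 1 FPKM. On simulated data for the interphase comparison (13471 genes), 89% of 100 genes changed by a log2 of 1 and 98% of 100 genes changed by 2 were recovered, with 4 false calls. Only these genes were changed, each with log2(FPKM + 1) above 1, and the noise was independent between libraries. In the data 74.6% of genes were called and same-numbered libraries were correlated. The simulation therefore gives no error rate for the calls made here. Genes were matched to GENCODE release 29 by symbol (12678) or older symbol (442), 97.4% in all and all 34 members. Of the table's genes, 21.3% overlap another gene. Every member may be named; per-library values are given for the 3 called members with the largest and the 3 with the smallest log2 difference in each comparison and for those with uncertain rows, and the extremes for the other lists. The values of 1 member are not reported here, although it is in the counts and medians. Members printed beyond that rule were chosen after their values were seen. Alternatives were a pseudocount of 0.1, a mean of at least 1 FPKM, quantile normalization, centring on library medians, the replicate number as a block, removal of length and GC trends, fits on the compared groups alone, leaving out members whose interval overlaps another gene's, and leaving out each library. The table of lncRNA features was not used here.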

Additional observations from a re-analysis of the deposited data

Results flagged for a closer look

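For 24 of the 34 genes the IP effect differed between mitosis and interphase by the test of the difference itself (limma, mitotic minus interphase effect, adjusted p below 0.05), where 47.1% of all genes did so. The Sm ring genes among them moved upward, with log2 differences of 2.77 for SNRPB, 2.09 for SNRPN, 1.49 for SNRPD2, 1.30 for SNRPF and 0.66 for SNRPE. So did SNRPC of U1 (1.41) and SNRPA1 and SNRPB2 of U2 (0.77 and 0.62). SNRPE (0.25) and SNRPA1 (0.23) did not pass with the length and GC trends taken out (adjusted p = 0.317 and 0.268, limma). In SF3B, SF3B5 (2.24) and SF3B4 (0.80) moved upward, and SF3B3 (-0.88) and SF3B1 (-0.77) downward. With the length and GC trends taken out, SF3B1 (-0.06), SF3B3 (-0.33) and SF3B4 (0.33) did not pass (adjusted p = 0.826, 0.0955 and 0.0891, limma). SF3A1 (-0.66) and SF3A3 (-0.53) moved downward. Of the tri-snRNP genes, PRPF8 (-2.31), PRPF3 (-1.77) and PRPF6 (-1.13) moved downward. Among the other PRPF genes, PRPF4B (-1.66), PRPF38A (-1.03), PRPF39 (-0.76), PRPF18 (-0.51) and PRPF38B (-0.49) moved downward, and PRPF19 (1.01) upward. Transcript length moved with these values across the 34 genes (Spearman's rho -0.76, and -0.49 over all annotated genes), and its part in them was tested only by taking out the trends, which left 13 of the 24 calls with the same sign. SF3A1, SF3A3, PRPF19, PRPF38A, PRPF38B and PRPF39 were also among the calls lost. No group had 4 or more libraries, so none was searched for a library far from the others.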

How the results depend on the processing

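With the length and GC trends of all genes taken out of each library, members called higher numbered 5 in the interphase IP, 2 in the mitotic IP and 7 in the difference between phases, and members called without IP numbered 14 higher and 7 lower. The gap between small and large medians was then -0.88 in interphase, 0.75 in the difference between phases and 0.87 between the IP groups. With the trends left in, these gaps were -1.94, 1.22 and 1.0. Of the members called before, 15 of 28 (interphase IP), 22 of 25 (mitotic IP), 13 of 24 (difference), 16 of 22 (no IP) and 19 of 21 (IP groups) kept their sign and call. Signs changed in interphase for PRPF38A (-0.61), PRPF38B (-0.01), PRPF39 (-0.17), PRPF4B (-0.14), SF3A2 (0.44), SNRPA1 (0.23) and SNRPD3 (0.58), in the mitotic IP for PRPF38B (-0.07), PRPF39 (-0.57) and SNRPB2 (-0.50), in the difference for SNRPG (-0.62), without IP for SNRPC (0.20), SNRPD2 (0.05) and SNRPG (0.70), and between the IP groups for PRPF4B (0.02). A pseudocount of 0.1 gave gaps of 0.01 in the mitotic IP, where the sign changed, 1.37 in the difference and 1.09 between the IP groups, where quantile normalization gave 0.92. Over the 28 members whose interval overlaps no other gene of the table, the gap between the IP groups was 1.29. The cause of these changes was not tested. Centring on library medians moved the median of all genes by 0.12 in the interphase IP and -0.11 between the IP groups, and kept 28 of 28 and 21 of 21 member calls. Between the IP groups it called 13 members lower, beside 10 without it. In mitosis against interphase without IP it kept 20 of 22 calls, and SNRPB and SF3A1 were lost (adjusted p = 0.0905 and 0.0574, limma). There SNRPB also lost its call under quantile normalization (adjusted p = 0.128, limma).

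Replicate numbers are shared by the groups, and the authors' ratio columns divide same-numbered libraries. The labels tie the numbers to no batch, and whether they mark shared preparations is not stated. The deviations of same-numbered libraries correlated at 0.088 to 0.528 between groups. With the replicate block 29, 25, 25, 23 and 23 members were called, in the order above, beside 28, 25, 24, 22 and 21, and no call was lost.

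Leaving out each library in turn gave 9 to 10 members higher and 17 to 18 lower in the interphase IP, 2 to 4 and 19 to 21 in the mitotic IP, 9 to 13 and 10 to 14 in the difference, 7 to 10 and 7 to 12 without IP, and 10 to 11 and 7 to 10 between the IP groups. The gaps ranged from -2.15 to -1.86, -0.34 to 0.02, 1.13 to 1.33, -0.40 to -0.14 and 0.91 to 1.03. With 2 libraries a group, leaving one out assumes that the other varies like the remaining groups. Depth is unknown, so no counting error is given for low genes such as PRPF40B.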
